A study of Drosophila melanogaster with 12 samples.

Results

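MicroRNAs (miRNAs) that are abundant in the adult fly head were followed in small RNA libraries from flies that express human TDP-43 (hTDP-43) in glia and from their controls. A miRNA product was included when its mean level over the 3 Repo/2U libraries was at least 1000 RPM, given as counts per 1000000 miRNA counts (RPM), that is, its count divided by the summed counts of all miRNA products in that library, times 1000000. Of the 452 miRNA products listed, 59 reached this level. Among them, 7 products of let-7, miR-100, miR-125, miR-277, miR-34 and miR-317 were left out by name, so that 52 remained. The members were thus chosen on their levels in the control libraries, and those levels are given as a description, without a test. Just inside the limit were miR-193-3p, with a mean of 1324 RPM, and miR-927-5p, with 1132 RPM. Just outside it were miR-79-3p, with 969.2 RPM, and miR-1010-3p, with 940.6 RPM.

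A miRNA is cut from a hairpin within a longer primary transcript. Drosha and its partner Pasha release the hairpin in the nucleus, Dicer-1 and Loquacious cut it into a duplex of a 5p and a 3p arm, and as a rule one arm is loaded into Argonaute1 while the other is lost. The loaded arm represses messenger RNAs that match its seed, the stretch near its 5′ end, and miRNAs with the same seed form a family with overlapping targets. In insects many abundant miRNAs mark a tissue: miR-124 is a miRNA of neurons, miR-1 of muscle, and bantam and miR-14 are known for holding back cell death.

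Both small RNA groups were made from heads of flies that carry Repo-Gal4, a driver active in nearly all glia. The Repo/2U flies carry the driver alone, and the Repo/TDP43 flies carry it together with the hTDP-43 transgene, in 3 libraries each (S19, S20 and S21, then S22, S23 and S24). The lines had been backcrossed to a common wild-type strain for at least 5 generations, the strain of all samples is labelled 2U, and the age of the flies used for small RNA is not given in the sources used here. The paper's account of the libraries names no sex for the flies. It says that most flies with glial hTDP-43 that emerge as adults are male. Whether the sex ratio differed between the genotypes was not tested. Long RNA was measured by RNA-seq in heads at 8–10 days after eclosion, from Repo/TDP43 (S05 and S06), Elav/TDP43, where the driver is neuronal (S11 and S12), and TDP43/2U, which carries the transgene and no driver (S14 and S15). Nothing in the labels says that the small RNA replicates came from separate cultures, so p-values measure only the spread between these libraries, which may be technical. Whole heads hold neurons, glia, photoreceptors, muscle, fat body and other cells, and fewer cells of a type cannot be told apart from less RNA per cell.

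The small RNA libraries held between 31074082 and 37736599 counts, of which between 76.2% and 85.2% fell on miRNA products. The lowest count of any member in any library was 23988, at which counting error is 0.65%, below the smallest spread of any member within a genotype (a coefficient of variation of 1.32%). Between replicates the members' counts gave a chi-square per degree of freedom between 1180 and 8920, and no library was a copy of another. The head and nervous system markers miR-124, miR-276a, miR-210, miR-1000 and miR-263b together held between 227582 and 241782 RPM in every library. Markers of testis were near 0, between 9.08 and 37.6 RPM in Repo/2U and between 17.7 and 26.7 in Repo/TDP43 over 40 rows, with 7 of 17 tested rows called higher in Repo/TDP43 and 0 lower (called meaning an adjusted p under 0.05 in edgeR, as described further on). Markers of ovary and early embryo (miR-309, miR-3, miR-286, miR-4, miR-5, miR-6, miR-318 and miR-994) were low in all libraries and differed by genotype, with summed levels between 22.7 and 25.8 RPM in Repo/2U and between 188 and 234 RPM in Repo/TDP43. All 13 tested rows of that list were called higher in Repo/TDP43, and none of its 19 rows was at 0 in all libraries. The 13 rows include copies of miR-6-3p and both arms of miR-309, miR-4 and miR-5, so they are not 13 separate markers. The part of these markers in the results below was not tested.

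The summed share of the member miRNAs is given as a description. Together the 52 members held 65.4%, 67.4% and 68.1% of all miRNA counts in the Repo/2U libraries and 65.9%, 67.4% and 66.4% in the Repo/TDP43 libraries. The means were 67.0% ± 1.4 (SD, n = 3) and 66.6% ± 0.74 (SD, n = 3). The groups overlapped, and the means differed by -0.445 percentage points. Since the Repo/2U libraries chose the members, this difference carries no test. Without library S21 the difference was 0.125 percentage points, so its direction rests on that library.

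Some rows repeat a product. miR-2a-3p, miR-2b-3p and miR-13b-3p are made from more than one gene and are each listed a second time, with counts that differ by 11.9% to 13.6% for miR-2a-3p, by 3.71% to 4.14% for miR-2b-3p and by at most 0.0013% for miR-13b-3p. The 5p arms of miR-276a and miR-276b have the same counts in every library and are one product here. Counting each of these once leaves 48 distinct products. miR-276a-3p and miR-276b-3p, and likewise miR-2a-3p and miR-2b-3p or miR-13a-3p and miR-13b-3p, are close in sequence, and the sources used here do not say how a read that matches several of them was counted. Their levels are therefore less certain than those of the others.

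**Figure D1:**
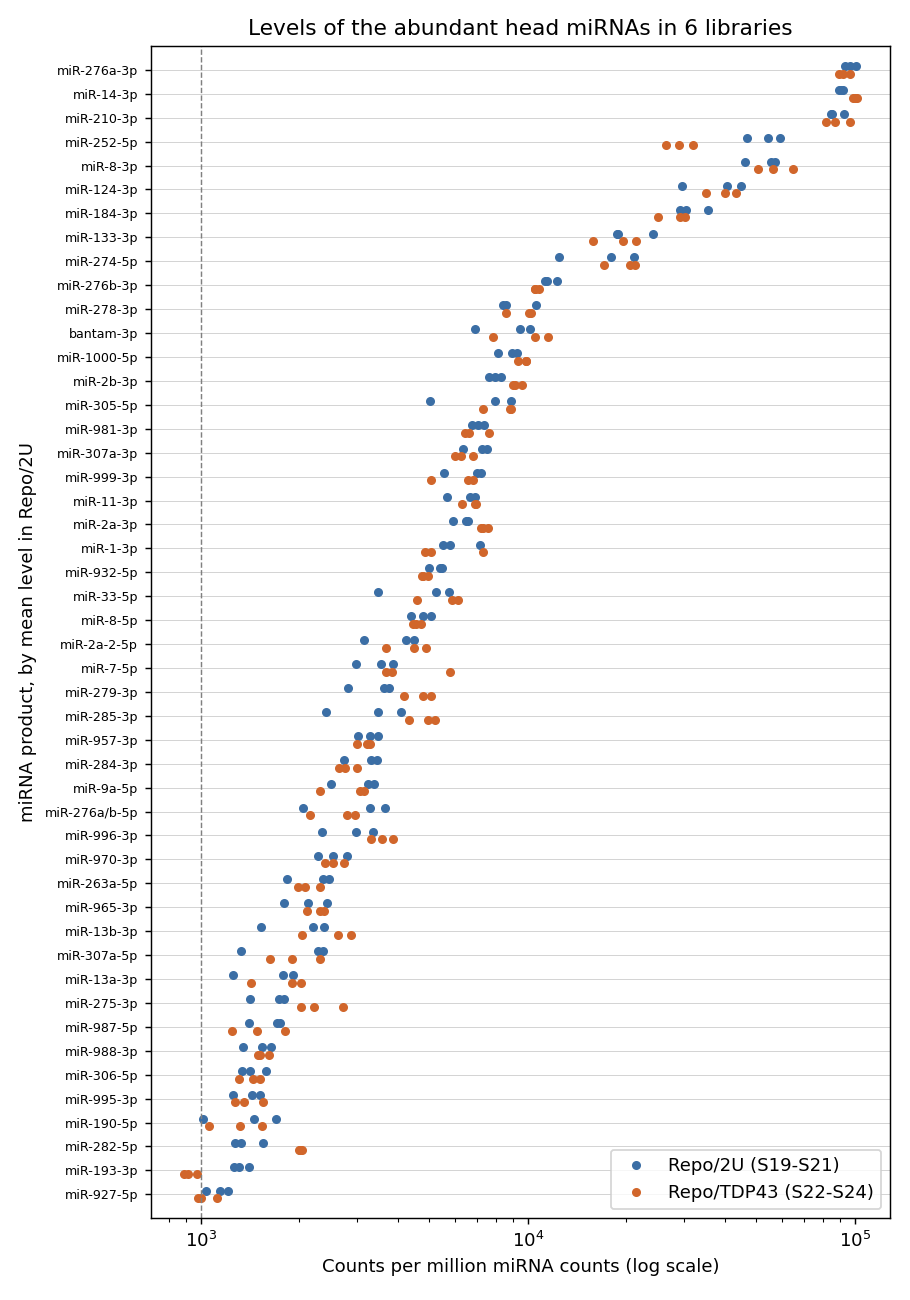
Levels of the 48 distinct abundant head miRNAs in each of the 6 small RNA libraries, in RPM on a log axis, ordered by their mean in Repo/2U (blue, S19 to S21; orange, Repo/TDP43, S22 to S24; dashed line, the limit of 1000). The levels fall from 96759 RPM for miR-276a-3p to 1132 RPM for miR-927-5p in Repo/2U, and miR-252-5p, at rank 4, is lower in every Repo/TDP43 library.

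The levels covered a wide range. Means in Repo/2U ran from 96759 RPM for miR-276a-3p to 1132 RPM for miR-927-5p, with 10 members at or above 10000 RPM and 42 below. The leading 6 members held 41.9% of the miRNA counts in Repo/2U and 40.7% in Repo/TDP43. Of the 51 pairs of neighbours in this order, 44 had overlapping ranges in the 3 Repo/2U libraries. The other 7 lay apart, among them miR-276a-3p and miR-14-3p, and miR-210-3p and miR-252-5p. Only neighbours were compared. Members on either side of such a gap can still overlap, as miR-190-5p and miR-927-5p did across the gap between miR-193-3p and miR-927-5p. Adapter ligation favours some small RNAs over others, so this is the order in these libraries rather than in the cell.

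At the head of the list stood miR-276a-3p, a regulator of a dopamine receptor gene in olfactory memory and of the clock gene timeless. Its level was 100816, 96523 and 92939 RPM in Repo/2U (S19, S20 and S21) and 96836, 89585 and 91876 RPM in Repo/TDP43 (S22, S23 and S24). miR-14-3p, which acts against cell death and in fat and insulin metabolism, was at 91896, 89408 and 90847 RPM in Repo/2U and at 99723, 101393 and 98492 RPM in Repo/TDP43. The miR-14-3p groups did not overlap in RPM but did after division by the TMM factors, and miR-14-3p took over the first place in Repo/TDP43, but its fitted log2 fold change was 0.058 ± 0.089 (SE), with an adjusted p of 0.709. miR-210-3p, a miRNA of photoreceptors, was at 92829, 85005 and 84388 RPM and at 96602, 87155 and 81571 RPM in the same order, with full overlap.

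Next came miR-252-5p, described below, and miR-8-3p, which promotes body growth from the fat body and protects neurons through its target atrophin. miR-8-3p was at 46006, 56886 and 55519 RPM in Repo/2U and at 50420, 56060 and 64565 RPM in Repo/TDP43. The neuronal miR-124-3p was at 29609, 45004 and 40618 RPM in Repo/2U and at 35015, 43349 and 40207 RPM in Repo/TDP43. Its lowest value in each genotype came from S19 and from S22. miR-184-3p, best known from the female germline, was at 35447, 29102 and 30464 RPM and then at 30192, 29255 and 25069 RPM. miR-133-3p, a muscle miRNA in vertebrates, was at 24134, 18841 and 18711 RPM and then at 21419, 19535 and 15813 RPM. For both of these S19 was the highest of the controls, and the genotypes overlapped.

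miR-274-5p, which larval glia release and which acts on synapses and on the branching of air tubes, was at 12464, 21052 and 17957 RPM in Repo/2U and at 17080, 21206 and 20525 RPM in Repo/TDP43. Although hTDP-43 was expressed in glia, the miR-274-5p log2 fold change was 0.116 ± 0.19 (SE), with an adjusted p of 0.722. miR-276b-3p was at 11278, 12279 and 11449 RPM in Repo/2U and at 10506, 10537 and 10823 RPM in Repo/TDP43, lower without overlap but not called (log2 fold change -0.217 ± 0.1 (SE), adjusted p = 0.237).

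The 2 libraries S19 and S22 stood apart from the others of their genotype, and in the same way. Over the 48 distinct products S19 was the lowest of its group for 33 and the highest for 12, and S22 was the lowest for 29 and the highest for 12. Their deviations from the mean of their own genotype had a correlation of 0.86 over these 48 products, against -0.8 to 0.52 for the other pairs of 1 library from each genotype. Deviations within a group of 3 sum to 0, so this correlation is a description and carries no p. Products low in both included miR-305-5p, miR-33-5p, miR-190-5p, miR-13a-3p, miR-13b-3p and the 5p arm of miR-276a and miR-276b. miR-133-3p, miR-184-3p and miR-252-5p were the highest of their genotype in both. The labels do not pair S19 with S22 in any way. The results that follow are therefore also given without both libraries, a choice made after seeing the data.

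**Figure D2:**
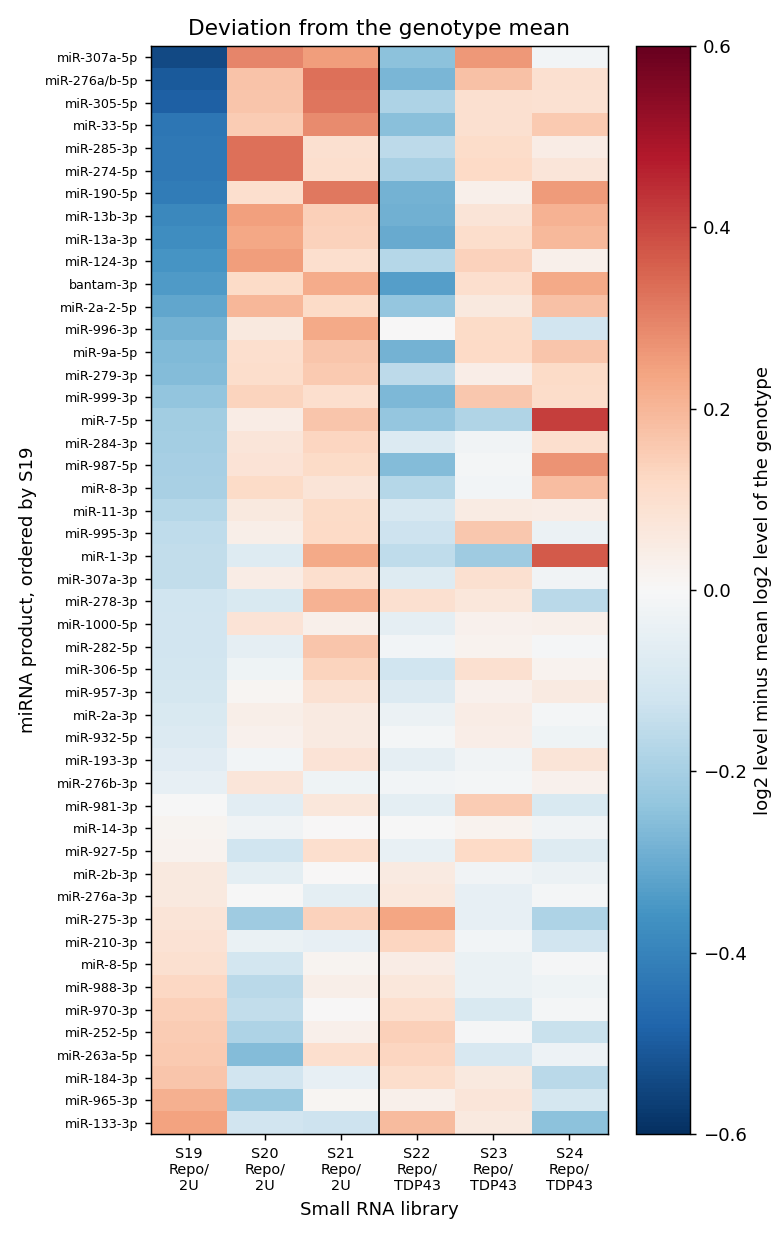
Deviation of each of the 48 distinct products from the mean log2 level of its genotype, by library (columns) and product (rows, ordered by S19), on a colour scale from -0.6 to 0.6. S19 and S22 share their pattern, low for most products at the top and high for those at the foot.

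The comparison of Repo/TDP43 with Repo/2U asks which miRNAs differ between flies with and without hTDP-43 expressed in glia. Its controls lack the transgene, so that carrying the transgene and expressing it cannot be told apart in it. The rule that chose the members did not use this contrast, although it shares the Repo/2U libraries with it. Earlier results of these data were known when the rule was set. The counts of all miRNA products were fitted together with edgeR's quasi-likelihood test and TMM scaling, which sets the bulk of the products to no change, and a product is called when its p, adjusted by Benjamini-Hochberg over all 295 products tested, is under 0.05. All 52 members passed the filter on low counts. Of all tested products 54 were called (18.3%), 38 of them higher (12.9%) and 16 lower (5.42%). Of the members 3 were called (5.77%), with miR-252-5p and miR-193-3p lower and miR-282-5p higher. A further 3 had an unadjusted p under 0.05, so that 6 of the 52 members passed at that level. Of all tested products 26.1% did. The mean of miR-193-3p was 1324 RPM in Repo/2U and 926.9 RPM in Repo/TDP43, which is below the limit for members. It is a member only through the control libraries, and a product that rose across the limit was left out. The split of the calls by direction therefore depends in part on this choice.

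The log2 fold changes of the members were small. Their median was -0.055, against -0.047 over all tested products. Their median size regardless of direction was 0.14, against 0.25 over all products, and 42 of the 52 lay within 0.25 of no change. Among the 49 members that were not called, values ran from -0.254 to 0.46, and standard errors over all members ran from 0.089 to 0.22 with a median of 0.13, against 0.22 for the tested products that are no members. In RPM, 14 of the 52 members (26.9%) did not overlap between genotypes, 10 higher and 4 lower in Repo/TDP43, where 34.2% of all tested products did not overlap. After the levels were divided by the TMM factors, a scale added after seeing the data, 14 members did not overlap again (26.9%, 6 higher and 8 lower, where 34.6% of all tested products did not overlap), but only 9 of them on both scales. miR-14-3p, miR-1000-5p, miR-285-3p and both rows of miR-2b-3p overlapped on the TMM scale, while miR-307a-3p, miR-957-3p, miR-284-3p, miR-996-3p and miR-927-5p lay apart on that scale alone. Statements on overlap elsewhere refer to RPM.

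**Figure D3:**
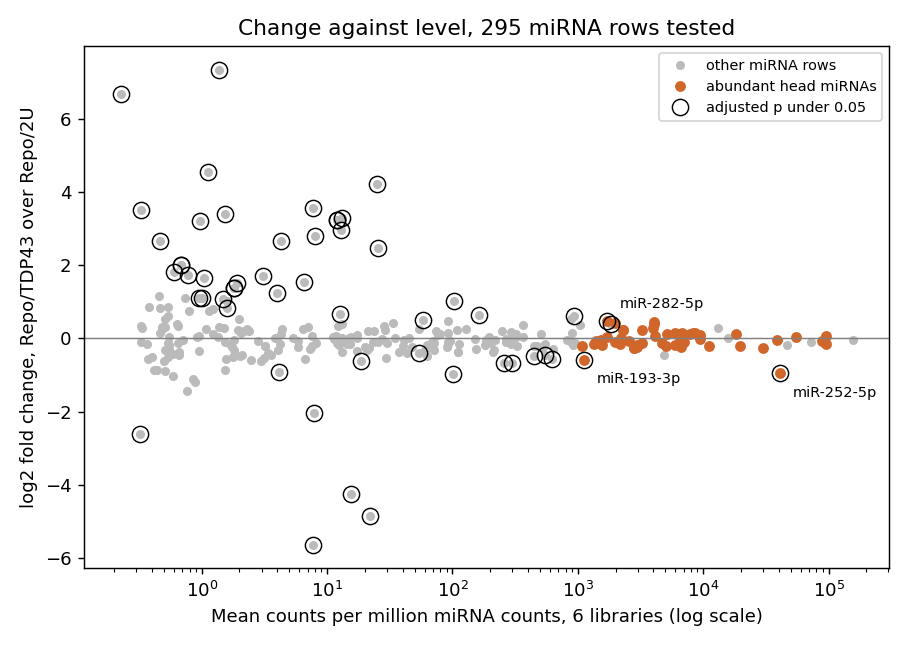
Log2 fold change of Repo/TDP43 over Repo/2U (vertical axis) against the mean level over 6 libraries in counts RPM miRNA counts (log axis), for the 295 products tested. The abundant head miRNAs (orange) lie close to 0, and circles mark products with an adjusted p under 0.05, 3 of them members.

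miR-252-5p, the fourth most abundant product in Repo/2U, fell the most among the members. It was at 58902, 46690 and 54192 RPM in Repo/2U and at 32026, 28910 and 26439 RPM in Repo/TDP43. Every Repo/TDP43 library was below every control, and the means of 53261 ± 6159 and 29125 ± 2800 RPM (SD, n = 3 each) differ by 1.83-fold. Its log2 fold change was -0.95 ± 0.13 (SE), with an adjusted p of 0.00215 by edgeR's quasi-likelihood test. In share of all miRNA counts it went from 5.33% to 2.91%. Without S19 and S22 the log2 fold change was -0.94, with an adjusted p of 0.00323 by the same test. The other arm of the hairpin, miR-252-3p, is no member and was also called lower, at a log2 fold change of -0.68 ± 0.16 (SE) and an adjusted p of 0.0214.

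miR-193-3p was at 1261, 1309 and 1401 RPM in Repo/2U and at 892.5, 912.1 and 975.9 RPM in Repo/TDP43. These groups lay apart with a small spread in each, with means of 1324 ± 71.4 and 926.9 ± 43.6 RPM (SD, n = 3 each), a difference of 1.43-fold. The log2 fold change was -0.591 ± 0.099 (SE), with an adjusted p of 0.00543 by edgeR, and -0.598 with an adjusted p of 0.0192 without S19 and S22. With upper-quartile scaling miR-193-3p was not called, at -0.415 and an adjusted p of 0.137.

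miR-282-5p, which represses the adenylyl cyclase gene rutabaga, was at 1272, 1329 and 1547 RPM in Repo/2U and at 1994, 2046 and 2010 RPM in Repo/TDP43. Each Repo/TDP43 library was above each control, and the means of 1383 ± 145 and 2017 ± 26.7 RPM (SD, n = 3 each) stand in a ratio of 1.46. Its log2 fold change was 0.472 ± 0.092 (SE), with an adjusted p of 0.0109 by edgeR, and 0.422 with an adjusted p of 0.0451 without S19 and S22. The call was lost when S20, S23 or S24 was left out, with adjusted p-values of 0.0646, 0.0687 and 0.051 in edgeR and log2 fold changes between 0.398 and 0.474.

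None of the 3 calls was made when all small RNA classes were fitted together. That fit held 28127 rows, 2542 of them called (9.04%, with 6.76% higher and 2.28% lower), and among 294 miRNA products 37 were called (12.6%, with 8.84% higher and 3.74% lower), 0 of them members. The log2 fold changes kept their sizes, at -0.999 for miR-252-5p (adjusted p = 0.0601), -0.63 for miR-193-3p (adjusted p = 0.189) and 0.431 for miR-282-5p (adjusted p = 0.382), in edgeR.

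**Figure D4:**
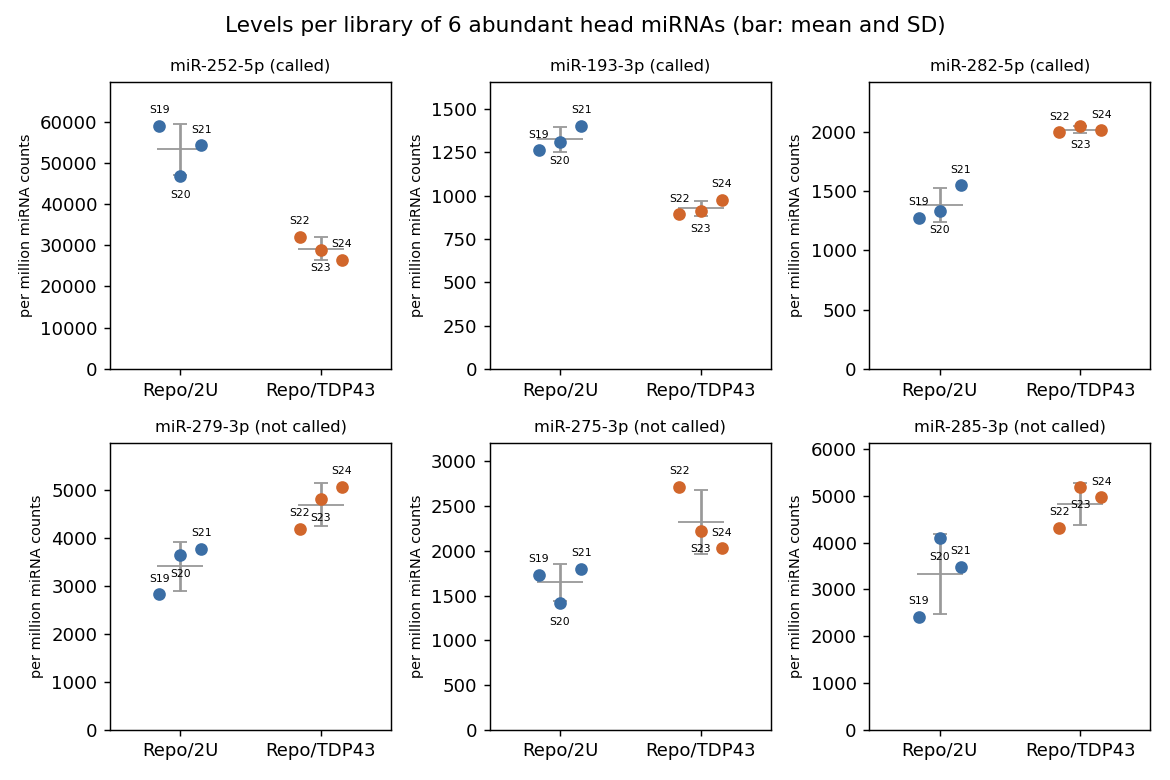
Levels in each library, in RPM, of the 3 members called and of the 3 members with an unadjusted p under 0.05 that were not called, with the mean and SD of each genotype in grey (n = 3 each, axes from 0). In all 6 panels the genotypes do not overlap in RPM, and miR-285-3p alone among them overlaps after division by the TMM factors.

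The 3 members next in order were all higher in Repo/TDP43 without overlap in RPM (miR-285-3p overlapped on the TMM scale), and none was called. miR-279-3p, which prevents the formation of CO2-sensing neurons at the wrong place and acts in rest and activity rhythms, was at 2822, 3639 and 3766 RPM in Repo/2U and at 4189, 4799 and 5063 RPM in Repo/TDP43. Its log2 fold change was 0.385 ± 0.13 (SE), with an adjusted p of 0.0895 by edgeR. miR-275-3p, known from mosquitoes for its part in blood digestion and egg development, was at 1731, 1411 and 1801 RPM and then at 2716, 2226 and 2028 RPM, at a log2 fold change of 0.422 ± 0.15 (SE) and an adjusted p of 0.104. miR-285-3p, which acts on the Hippo pathway in the glia that form the blood-brain barrier, was at 2413, 4097 and 3482 RPM and then at 4323, 5196 and 4972 RPM, at 0.46 ± 0.19 (SE) and an adjusted p of 0.175.

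These 3 were called in some alternatives only. Upper-quartile scaling called miR-279-3p (log2 fold change 0.569, adjusted p = 0.0189) and miR-285-3p (0.653, adjusted p = 0.02), while it moved the median over all products to 0.13. Scaling by the sum of all small RNA rows or by the mapped reads called miR-275-3p (0.468 with adjusted p = 0.0456, and 0.464 with adjusted p = 0.0393). Without S20, miR-285-3p was called at 0.603 with an adjusted p of 0.0363. Without S19 and S22, the adjusted p-values in edgeR were 0.0714, 0.137 and 0.221 for miR-279-3p, miR-275-3p and miR-285-3p. miR-995-3p, which shares its seed with miR-285-3p, was at 1256, 1433 and 1516 RPM in Repo/2U and at 1276, 1552 and 1354 RPM in Repo/TDP43, and the log2 fold change was -0.083 ± 0.11 (SE).

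The remaining members are described by groups with a known role or tissue. These lists were also chosen with earlier results of these data known, so their counts and medians are a description. The K-box family shares a seed that matches the K box in messenger RNAs, and members of it repress the cell death genes reaper, grim and sickle. Of its 25 rows 23 were tested and 3 were called, all copies of miR-6-3p, which is on the list of ovary and early embryo markers and is no member. The 9 K-box members, 6 of them distinct, held 0 calls, and their median log2 fold change was 0.14, with 0.048 over all tested rows of the list. miR-2b-3p was at 8256, 7614 and 7963 RPM in Repo/2U and at 9615, 9134 and 9039 RPM in Repo/TDP43. miR-2a-3p was at 5922, 6467 and 6544 RPM and then at 7183, 7572 and 7300 RPM. Neither overlapped between genotypes in RPM, though miR-2b-3p did on the TMM scale, at log2 fold changes of 0.141 ± 0.1 (SE) and 0.142 ± 0.092 (SE).

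The other K-box members overlapped between the genotypes. miR-11-3p, which lies within the cell cycle gene E2f1, was at 5678, 6652 and 6909 RPM in Repo/2U and at 6273, 6942 and 6913 RPM in Repo/TDP43. miR-13b-3p was at 1532, 2375 and 2211 RPM and then at 2046, 2632 and 2886 RPM. miR-13a-3p was at 1255, 1910 and 1789 RPM and then at 1430, 1900 and 2021 RPM. The passenger arm of one miR-2a hairpin, miR-2a-2-5p, does not share the K-box seed and is listed with its hairpin, at 3156, 4493 and 4238 RPM and then at 3675, 4493 and 4874 RPM.

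The neuronal list (miR-124, miR-1000, miR-932, miR-276a, miR-276b, miR-279 and miR-996) had 14 rows, all tested, with 0 called and a median log2 fold change of -0.18. Its 9 members, with the shared 5p product counted under both miR-276a and miR-276b, had a median of -0.14. miR-1000-5p, which limits glutamate release by repressing the transporter VGlut, was at 8102, 9299 and 8975 RPM in Repo/2U and at 9320, 9855 and 9898 RPM in Repo/TDP43. miR-932-5p, encoded within Neuroligin 2, was at 4990, 5387 and 5487 RPM and then at 4777, 4951 and 4738 RPM. In RPM the first was higher and the second lower without overlap, and miR-1000-5p overlapped on the TMM scale, at log2 fold changes of 0.062 ± 0.1 (SE) and -0.211 ± 0.092 (SE), and neither was called. The shared 5p product of miR-276a and miR-276b was at 2054, 3285 and 3668 RPM and then at 2157, 2955 and 2796 RPM. miR-996-3p, which shares its seed and its transcript with miR-279-3p, was at 2355, 2981 and 3354 RPM and then at 3586, 3875 and 3310 RPM, with a log2 fold change of 0.24 ± 0.12 (SE) and an adjusted p of 0.274 by edgeR.

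Of the eye and sensory cell list (miR-210, miR-263a, miR-263b, miR-7 and miR-9a) all 10 rows were tested and 0 were called, with a median log2 fold change of -0.027, and -0.1 for the 4 members. miR-7-5p, which favours photoreceptor fate by repressing yan, was at 2991, 3563 and 3877 RPM in Repo/2U and at 3698, 3836 and 5783 RPM in Repo/TDP43. Its high value in S24 stands alone. miR-9a-5p, which keeps the number of sensory organs in check through senseless, was at 2512, 3240 and 3395 RPM and then at 2324, 3072 and 3169 RPM. miR-263a-5p, which protects bristle cells from death, was at 2464, 1840 and 2369 RPM and then at 2319, 1983 and 2078 RPM. All of these overlapped.

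On the list of growth and cell survival (bantam, miR-14 and miR-278) all 6 rows were tested and 1 was called, the bantam-5p arm described below, which is no member. bantam-3p, the repressor of the cell death gene hid, was at 6899, 9455 and 10175 RPM in Repo/2U and at 7805, 10542 and 11503 RPM in Repo/TDP43. Its lowest values came from S19 and S22, and its log2 fold change was 0.1 ± 0.17 (SE). miR-278-3p, which acts on energy balance through expanded in the fat body, was at 8430, 8605 and 10592 RPM and then at 10253, 10082 and 8575 RPM. The median log2 fold change of the 3 members was 0.058.

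The metabolic list (miR-8, miR-33 and miR-305) had 6 rows, all tested, with 0 called and a median of -0.0084, and of 0.08 for its 4 members. miR-305-5p, which adapts gut stem cells to nutrition, was at 5038, 7960 and 8857 RPM in Repo/2U and at 7305, 8863 and 8842 RPM in Repo/TDP43. miR-33-5p, encoded within the sterol regulator gene SREBP, was at 3493, 5250 and 5746 RPM and then at 4600, 5864 and 6102 RPM. The minor arm of the abundant miR-8 hairpin, miR-8-5p, was at 5052, 4384 and 4786 RPM and then at 4725, 4453 and 4549 RPM. S19 was the lowest control for miR-305-5p and miR-33-5p and the highest for miR-8-5p.

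The muscle list (miR-1 and miR-133) had 4 rows, all tested, with 0 called and a median of -0.3, and of -0.19 for its 2 members. miR-133 is listed for its role in vertebrate muscle, so these medians are not a measure of muscle in the fly head. In S19 and S22 miR-133-3p lay above the mean of its genotype and miR-1-3p below it. miR-1-3p was at 5514, 5782 and 7142 RPM in Repo/2U and at 5071, 4862 and 7276 RPM in Repo/TDP43. The lowest and the highest of the 6 values were both from Repo/TDP43, so the groups overlapped fully. Of the members on no list, only miR-252-5p, miR-193-3p and miR-282-5p were called. The others include miR-284-3p, which represses glutamate receptor subunits at the larval nerve-muscle synapse, at -0.248 ± 0.11 (SE), and miR-190-5p, which acts in the response to low oxygen, at -0.153 ± 0.19 (SE).

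**Figure D5:**
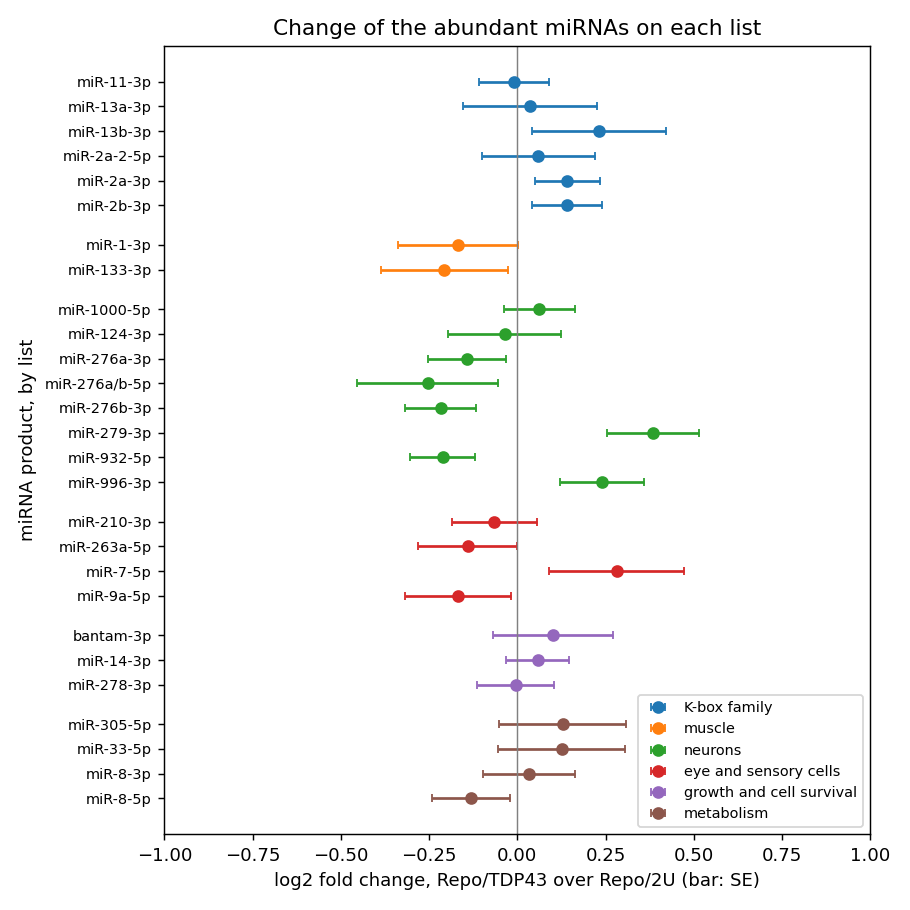
Log2 fold change of Repo/TDP43 over Repo/2U with its SE (bars) for the distinct abundant miRNAs on each list, coloured by list. None of those shown was called, and miR-279-3p, at 0.385, lies farthest from 0.

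The direction of these small changes depends on how the libraries are scaled. With TMM scaling 22 members were above 0 and 30 below, with library size alone 28 were above and 24 below, and with upper-quartile scaling 41 were above and 11 below. Under another scaling or tool the log2 fold change of 21 of the 49 members that were not called changed sign. The signs given for members that were not called, and for medians over lists, therefore refer to the fit with TMM scaling only.

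The hairpins of the members favour one arm. Both arms are listed for 41 hairpins, of which 27 had more 3p and 14 more 5p, and the minor arm held a median of 0.921% of the 2 arms in Repo/2U, from 0.0746% for miR-274 to 26% for miR-193. In 23 hairpins it held less than 1%. In 4 hairpins (miR-276a, miR-276b, miR-307a and miR-8) both arms are members.

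The ratio of the arms does not depend on library size and was tested by edgeR with library as a block, as the 5p arm over the 3p arm. Of 93 hairpins tested, 1 was called (1.08%), miR-969, which is no member and is named because the count turns on it. Of the 41 hairpins of members 0 were called, 4 had an unadjusted p under 0.05, and limma called 0 of them. The share of all 93 hairpins at that unadjusted level is not given here. The nearest to the threshold was miR-275, where the minor arm was 3.85%, 3.89% and 3.71% of both arms in Repo/2U and 2.43%, 2.64% and 2.58% in Repo/TDP43. Its groups lay apart, and the log2 ratio changed by -0.6 ± 0.13 (SE), with an adjusted p of 0.0595. The minor arm of bantam was 7.29%, 6.49% and 6.05% in Repo/2U and 5.01%, 4.64% and 4.1% in Repo/TDP43, also apart, with a change of -0.56 ± 0.15 (SE) and an adjusted p of 0.114. For miR-285 the change was -0.639 ± 0.23 (SE), with an adjusted p of 0.387, and for miR-193, whose minor arm held between 22.9% and 27.9% in Repo/2U and between 29.5% and 33.1% in Repo/TDP43, it was 0.378 ± 0.16 (SE), with an adjusted p of 0.439.

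Without S19 and S22, a choice made after seeing the data, the same test called 6 of the 93 hairpins. Of these 4 are among the 41 hairpins of members, with changes of -0.558 for miR-275 (adjusted p = 0.00849), -0.551 for bantam (adjusted p = 0.0162), -0.509 for miR-285 (adjusted p = 0.0168) and 0.579 for miR-282 (adjusted p = 0.00615). Without S19 alone miR-282 was called as well, at 0.881 with an adjusted p of 0.0156.

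Some arms that are no members were called in their levels. The bantam-5p arm was at 542.5, 656.7 and 655.8 RPM in Repo/2U and at 411.4, 513.3 and 492.3 RPM in Repo/TDP43, every Repo/TDP43 library being below every control, and was called lower at -0.465 ± 0.13 (SE) with an adjusted p of 0.0466 by edgeR. The arms miR-284-5p at -0.576 ± 0.11 (SE) and miR-927-3p at -0.402 ± 0.11 (SE) were called with adjusted p-values of 0.0109 and 0.0477, and the miR-284-3p and miR-927-5p members of the same hairpins were at -0.248 and -0.205 without a call. Whether the arms differ in their change was not shown by the ratio test, which gave adjusted p-values of 0.439 for miR-284 and 0.653 for miR-927.

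A separate class of rows holds reads counted on the hairpin apart from the rows of the mature arms. The sources used here do not say how reads were divided between the hairpin rows and the arms. In the fit of all small RNA rows, 42 hairpins of members had such a row tested and 1 was called, higher, where 9.04% of all rows were called and 6.76% were called higher. This was the miR-275 hairpin, with 70, 55 and 72 counts in Repo/2U and 159, 122 and 176 counts in Repo/TDP43, at a log2 fold change of 1.06 ± 0.21 (SE) and an adjusted p of 0.011. The hairpin rows of miR-252, miR-193 and miR-282 were at -0.475 ± 0.16 (SE), -0.463 ± 0.18 (SE) and 0.304 ± 0.17 (SE), with adjusted p-values of 0.109, 0.192 and 0.393, in the directions of their called arms.

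Several members lie near another miRNA gene. In the RefSeq annotation of Release 6, a later assembly than the dm3 build used for counting, 51 of the 52 members matched a miRNA gene, and with 10 kb as the limit between neighbours 11 groups of genes held a member. The miR-275 and miR-305 genes are neighbours, and the log2 fold changes of their abundant arms were 0.422 ± 0.15 (SE) and 0.129 ± 0.18 (SE). The miR-279 and miR-996 genes, also neighbours, gave 0.385 ± 0.13 (SE) and 0.24 ± 0.12 (SE). The miR-210 gene lies near miR-969, whose arms were both called lower, miR-969-3p at -2.03 ± 0.15 (SE) and miR-969-5p at -0.631 ± 0.15 (SE), while miR-210-3p was at -0.065 ± 0.12 (SE).

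Long RNA bears on how the miRNAs are made. In the RNA-seq fit of Repo/TDP43 against TDP43/2U, 3761 of 13507 genes and transposons were called (27.8%), 15.3% higher and 12.5% lower. The controls of this comparison lack the driver, so that the driver and the expression of hTDP-43 cannot be told apart in it, and each genotype has 2 libraries. The reference names a primary transcript for some members, and 14 such genes were tested, a list made after the files were seen. Of these 1 was called higher and 4 lower, with a median log2 fold change of -0.33 against 0.0023 over all features. DESeq2 called 1 higher and 3 lower, with a median of -0.0032 over all features. Lower calls were also made without control library S14 or S15, in fits with 1 control library each. The shares of all features called by DESeq2 and with library size alone are not given here. The median over all features was 0.17 when library size alone was used for scaling. With library size alone 2 were called higher and 1 lower, and with S05 or S06 left out 1 higher and 0 lower. Each of those fits has 1 Repo/TDP43 library, which is assumed to vary like the 2 controls, and they called 3.96% and 7.28% of all features.

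The transcript called higher was CR43334, the bantam primary transcript. Its counts were 9530 and 7043 in Repo/TDP43 (313 counts per 1000000 counts of the library, CPM, in each), 3973 and 2736 in Elav/TDP43 (110 and 102 CPM), and 3173 and 3710 in TDP43/2U (98.8 and 90.2 CPM). The Repo/TDP43 libraries stood apart from the other 4, and the log2 fold change against TDP43/2U was 1.56 ± 0.078 (SE), with an adjusted p of 0.00031 by edgeR. Here and below, CPM values are scaled by library size alone and log2 fold changes by TMM. The fold changes are therefore not the ratios of the CPM values. The row for the bantam gene itself (ban), looked at after its values were seen, held 49 and 30 counts in Repo/TDP43, 1 and 3 in Elav/TDP43, and 0 and 1 in TDP43/2U. As given above, bantam-3p in the small RNA libraries, where both groups carry the driver, was at a log2 fold change of 0.1 ± 0.17 (SE).

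The primary transcripts called lower were CR46006 of miR-276a and miR-276b, CR43650 of miR-8, CR43651 of miR-14 and CR43314 of miR-263a. CR46006 was at 65.3 and 65.1 CPM in Repo/TDP43 and at 86.9 and 77.5 CPM in TDP43/2U, with a log2 fold change of -0.498 ± 0.08 (SE) and an adjusted p of 0.00891 by edgeR. CR43650 was at 61.1 and 56.5 CPM and then at 70.4 and 62.6 CPM (-0.341 ± 0.085 (SE), adjusted p = 0.0293). CR43651 was at 25.3 and 25.1 CPM and then at 28.8 and 28.6 CPM (-0.353 ± 0.095 (SE), adjusted p = 0.037). The transcript of miR-252, CR17025, was at 11 and 11.4 CPM in Repo/TDP43 and at 14.4 and 11.3 CPM in TDP43/2U, and that of miR-279 and miR-996, CR31044, at 14 and 14.6 CPM and then at 10.5 and 9.87 CPM. Neither was called, at -0.356 ± 0.15 (SE) with an adjusted p of 0.118 and at 0.324 ± 0.13 (SE) with an adjusted p of 0.103.

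Genes of the miRNA pathway were looked at in the same RNA-seq fit. Of 15 listed genes 15 were tested and 0 were called by edgeR, where 27.8% of all genes and transposons were called. Of the 15, 3 had an unadjusted p under 0.05, and DESeq2 called 1. The shares over all features are not given for these counts. Their log2 fold changes ran from -0.345 for Fmr1, a partner of the Argonaute complex, to 0.103 for Ranbp21, the exporter of hairpins. Fmr1 was at 109 and 112 CPM in Repo/TDP43 and at 118 and 132 CPM in TDP43/2U (SE 0.11, adjusted p = 0.056), and it was the gene DESeq2 called. The cofactor pasha was at 19.4 and 19.6 CPM and then at 21.2 and 21.3 CPM, at -0.292 ± 0.11 (SE) and an adjusted p of 0.0851. AGO1, the main effector, was at 714 and 721 CPM and then at 731 and 769 CPM, at -0.233 ± 0.094 (SE) and an adjusted p of 0.113. The nucleases drosha and Dcr-1 were at -0.156 ± 0.087 (SE) and 0.022 ± 0.086 (SE). Without the control library S14, 5 of the 15 were called lower (AGO1, Ars2, Droj2, Fmr1 and pasha), and without S15, 2 were (Fmr1 and loqs). Each of those fits has 1 control library, which is assumed to vary like the 2 Repo/TDP43 libraries, and they called 45.7% and 31.0% of all features.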

How the data were processed

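Small RNA counts per annotated product and RNA-seq counts per gene and transposon were deposited by the authors as whole numbers without normalization. Per the labels and the methods, small RNA of 18 to 29 nt was gel-selected, cloned by adapter ligation and sequenced on a NextSeq, and the tools named are Bowtie and bedtools for small RNA and STAR with TEtranscripts for RNA-seq, after removal of ribosomal reads from the latter, on dm3. Their versions, and the treatment of small RNA reads with several alignments, are not given in the sources used here. No molecular identifiers were used, so counting error is only part of the error.

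All 12 samples were assigned to groups by their titles, and 0 table columns were unused. RNA-seq totals ranged from 22476024 to 41150009 counts. Counts were tested with edgeR 4.0.16 in R 4.3.3 (filterByExpr, TMM, quasi-likelihood test, SE from the F statistic, Benjamini-Hochberg at 0.05) over all miRNA products, and over all genes and transposons for RNA-seq. TMM factors of the small RNA libraries were between 0.924 and 1.067. Arm ratios used library as a block, for hairpins with at least 10 counts on each arm in every library. Alternatives were other scalings, filters, thresholds and minimum levels, DESeq2 1.42.0, limma 3.58.1 on log2 ratios with a pseudocount of 0.5, and leaving out each library. The tests were tried on simulated data first. Values per library are given for the 10 most abundant members, those called and those on the lists. The members and the lists were chosen with earlier results of these data known. Elav/TDP43 was not fitted, and the planned comparison of host genes was not run, since the annotation used gives no strand.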

Additional observations from a re-analysis of the deposited data

How the results depend on the processing

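The count of members called was 3 and stayed between 2 and 4 under the other scalings, DESeq2, the filters, the stricter thresholds and leaving out single libraries (2 to 3), whereas it was 0 with all small RNA rows in one fit. With a minimum level of 500 RPM there were 66 members and 7 calls (the added calls being bantam-5p, miR-10-3p, miR-284-5p and miR-986-5p, named after their values were seen), and with 2000 RPM 41 members and 1 call. The direction of the called members was the same in all 17 alternative fits, with log2 fold changes from -1.09 to -0.785 for miR-252-5p, from -0.66 to -0.415 for miR-193-3p and from 0.398 to 0.651 for miR-282-5p, and they were called in 16, 15 and 13 of them. Over all miRNA products 54 were called, and leaving out single libraries gave 27 to 48, with 27 without S23 and 29 without S24. Leaving out S19 and S22 together, added after seeing the data, gave 23, and an adjusted p under 0.01 gave 26. Higher calls were 70.4% of all calls, and 84.8% with upper-quartile scaling. For arm ratios, 1 hairpin was called, 6 without S19 and S22, and 0 to 2 without single libraries (0 without S21 or S23, 2 without S19). The summed share of the member miRNAs differed by -1.31, -1.4 and -0.533 percentage points with all small RNA rows, with mapped reads and with copies counted once, and ran from -1.23 to 0.125 percentage points without single libraries, turning direction without S21 (0.125). For the miRNA pathway genes, 0 were called, 1 with DESeq2, 1 with no filter (Fmr1), and 0 to 5 without single libraries, where 1 genotype has 1 library. No paired analysis was possible because replicate names are not shared between the groups. The comparison of host genes was not run. With 3 or 2 libraries a group, small changes of 0.25 or less on the log2 scale lie within about 2 standard errors for most members and could not be told from the spread.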

Other observations

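The hairpin row of miR-307a stands out from all other hairpin rows. It held 128841, 152979 and 122611 counts in Repo/2U (S19, S20 and S21) and 115239, 137337 and 131680 counts in Repo/TDP43 (S22, S23 and S24), whereas the next 2 hairpin rows, of miR-34 and miR-970, held between 19051 and 28352 and between 7061 and 12009 counts. The miR-307a arms, both members, were at 7037 (3p) and 1992 (5p) RPM in Repo/2U, so the order of the hairpin rows does not follow the order of the arms.

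The spread between replicates differed among the members. In Repo/2U the coefficient of variation ran from 1.38% for miR-14-3p to 29.0% for miR-307a-5p, with a median of 11.8%. The latter rests on S19, at 1325 RPM against 2359 and 2290 RPM in S20 and S21. In Repo/TDP43 it ran from 1.32% for miR-282-5p to 26.3% for miR-7-5p, with a median of 9.48%, and the miR-7-5p value rests on S24, at 5783 RPM against 3698 and 3836 RPM in S22 and S23. miR-282-5p, miR-285-3p and miR-996-3p were the 3 members whose rank by level moved by 5 or more places between genotypes, to rank 43 from 50, to rank 25 from 30 and to rank 31 from 36.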
